A study of Mus musculus with 4 samples.

Results

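The genes that build and place chromatin loops were examined here in cultured mouse cortical cells given a knockdown of CTCF. The set held 10 genes, chosen by name from the 37437 Ensembl genes in the deposited values: Ctcf itself, the cohesin subunits Smc1a, Smc3, Rad21, Stag1 and Stag2, and the cohesin regulators Nipbl, Wapl, Pds5a and Pds5b. All 10 matched a GENCODE vM21 symbol once, and all 10 passed the filter on low values, which left 12816 genes. Primary mouse cortical cultures had been infected with adeno-associated virus carrying either a knockdown of CTCF (shCTCF, 2 libraries) or a knockdown of lacZ (shLAC, 2 libraries), a bacterial gene absent from the mouse genome. Every culture was therefore infected, and shLAC served as the control. The labels name no strain, age, sex or time after infection, nor do the sources used here give the hairpin sequences or the share of cells infected. RNA came from whole cultures, so for any gene below, fewer cells of a type and less RNA per cell cannot be told apart.

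Cohesin is a ring of the ATPases SMC1A and SMC3 closed by the kleisin RAD21, to which either STAG1 or STAG2 is bound. NIPBL drives the ring to extrude chromatin into a growing loop, WAPL releases it with the help of PDS5A or PDS5B, and CTCF bound to its DNA motif halts it through contacts with the STAG and RAD21 subunits, as structural work on the human proteins showed. In neurons, which no longer divide, this machinery organises enhancers and promoters, among them those of the clustered protocadherins, and mutations in NIPBL, SMC1A, SMC3 and RAD21 cause Cornelia de Lange syndrome in humans.

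Ctcf fell and Stag1 rose in the knockdown, while the other 8 genes did not pass the test. Their upstream sequences are shown because these were the members whose transcript level changed. They are the 250 bases before the transcription start in RefSeq (GRCm38.p6, + strand), for Ctcf at chr8:105636288-105636537 and for Stag1 at chr9:100643198-100643447, and capitals mark matches to a GC box (GGGCGG) or, in Stag1, also to the core of the YY1 site (GCCATNTT), searched on both strands. The RefSeq start of Stag1 lies inside the longer GENCODE gene, whose first base is at 100597798, so the window is that of a start within the gene.
Ctcf: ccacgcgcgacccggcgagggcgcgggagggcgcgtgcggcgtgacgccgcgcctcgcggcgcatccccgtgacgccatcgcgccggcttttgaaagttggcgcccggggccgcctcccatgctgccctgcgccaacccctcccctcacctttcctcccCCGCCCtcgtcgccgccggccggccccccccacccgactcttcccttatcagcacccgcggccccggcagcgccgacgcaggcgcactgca
Stag1: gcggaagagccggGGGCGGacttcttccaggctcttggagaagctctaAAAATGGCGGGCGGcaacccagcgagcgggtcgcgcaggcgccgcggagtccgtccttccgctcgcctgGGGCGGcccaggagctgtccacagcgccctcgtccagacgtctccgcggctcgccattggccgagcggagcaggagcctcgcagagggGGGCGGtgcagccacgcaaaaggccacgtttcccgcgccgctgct
Both windows were rich in G and C, at 77.6% in Ctcf and 71.2% in Stag1, against a median of 52.4% over 32851 annotated promoters. The Stag1 window held 4 GC boxes, of which the one at 194 bases before the start adjoined the YY1 core at 202 bases, and the Ctcf window held 1. A GC box occurred in 32.7% of all promoter windows and in all 7 members with an entry, which were Ctcf, Stag1, Smc1a, Smc3, Wapl, Pds5a and Pds5b; Stag2, Rad21 and Nipbl had none. The YY1 core occurred in 3.91% of all windows and in Stag1 and Pds5b. The CTCF core, searched as CC, 3 bases of any kind, AG, 2 bases of any kind and GGC, occurred in 7.17% of all windows and in Pds5b, 134 bases before its start. These matches describe letters in the windows and do not show binding.

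Values are in TPM, a transcript abundance corrected for gene length and library total, so levels can be compared between genes. In shLAC replicate 2, 13 satellite-like predicted genes held 20.2% of all TPM, against 0.405% to 1.86% in the other 3 libraries, which lowered every other gene there. Changes are therefore given after median-ratio scaling, with factors of 1.10 and 1.05 for the shCTCF libraries and 1.04 and 0.832 for the shLAC libraries. Log2 fold changes of single genes are differences in log2(TPM + 1). They are smaller than those of TPM itself, above all in low genes. As deposited, the median log2 fold change of all tested genes was 0.17. The cultures expressed markers of neurons and, at lower summed levels, of astrocytes and the oligodendrocyte lineage. The scaled TPM summed over 15 excitatory neuron markers was 321 to 335 in shCTCF and 286 to 294 in shLAC. That sum weighs most on abundant genes such as Camk2a and Slc17a7. Of 14 tested excitatory markers, 8 had a positive and 6 a negative log2 fold change, with a median of 0.05. Over 15 inhibitory neuron markers the sum was 356 to 361 in shCTCF and 347 to 360 in shLAC. The scaled TPM summed over 14 astrocyte markers was 113 to 139 in shCTCF and 146 to 171 in shLAC. Over 11 oligodendrocyte lineage markers it was 79.6 to 88.4 in shCTCF and 74.2 to 88.2 in shLAC. Microglial markers summed to at most 3.08 scaled TPM, endothelial markers to at most 1.85 and fibroblast and mural markers to at most 3.68, with the defining markers C1qb and Cldn5 listed at 0 in all 4 libraries.

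Ctcf encodes the zinc finger protein that was targeted (ENSMUSG00000005698, chromosome 8, 105636568 to 105682922, + strand, GRCm38). It was at 3.56 and 3.56 TPM in the shCTCF libraries, against 8.49 and 7.32 TPM in the shLAC libraries. The shCTCF values were nearly equal to each other and lay far below both control values. After scaling, Ctcf averaged 3.32 ± 0.0993 TPM in shCTCF and 8.47 ± 0.460 TPM in shLAC (SD, n = 2 each), so that 39.1% of the control level remained. In log2(TPM + 1), Ctcf fell by 1.13 (SE 0.0617, limma adjusted p = 0.0177), the 41st lowest of 12816 genes on that scale. This is 0.456 times the control on the scale of TPM + 1, a smaller fall than in TPM itself. Among protein-coding genes of at least 300 nt fitted alone, the adjusted p of limma was 0.00288. The call was lost without shCTCF replicate 1 (limma adjusted p = 0.118) or shCTCF replicate 2 (limma adjusted p = 0.0935), where a lone library was taken to vary like the other group, and it held without each library in the coding genes (limma adjusted p up to 0.0118).

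Stag1 encodes 1 of the 2 STAG subunits of somatic cells, and its transcript was the rarer of the pair in every library (ENSMUSG00000037286, chromosome 9, 100597798 to 100959375, + strand). It was at 9.05 and 8.23 TPM in the shCTCF libraries, against 5.10 and 4.09 TPM in the shLAC libraries. Both knockdown values lay above both control values, with a wide gap between the groups. After scaling, Stag1 averaged 8.04 ± 0.299 TPM in shCTCF and 4.90 ± 0.0153 TPM in shLAC (SD, n = 2 each), 1.64 times the control level. In log2(TPM + 1), Stag1 rose by 0.61 (SE 0.0533, limma adjusted p = 0.0361), the 131st highest of 12816 genes on that scale. This is 1.53 times the control on the scale of TPM + 1. Stag1 rose by 0.79 in the values as deposited (limma adjusted p = 0.00437). The fit as deposited did not use each gene's own spread, so its adjusted p cannot be set beside that of the scaled fit. The coding genes fitted alone gave a limma adjusted p of 0.00523, and from 8.50e-05 to 0.0265 without each library in turn. Over all tested genes the call was lost without any 1 of shCTCF replicates 1 and 2 and shLAC replicates 1 and 2 (limma adjusted p = 0.225, 0.218, 0.0577 and 0.0709) and with no filter on low values (limma adjusted p = 0.0990), with Stag1 higher each time.

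With Ctcf and Stag1, 2 of 10 members passed, where 134 of 12816 genes did (1.05%), 0.367% higher and 0.679% lower. In the coding genes the same 2 members passed, beside 6.06% of 11268 genes, 2.58% higher and 3.48% lower. As deposited the same 2 passed, beside 2.82% of 12816 genes, 1.92% higher and 0.905% lower. The scaled groups did not overlap for 4 members, with Stag1 above and Ctcf, Smc1a and Pds5b below the controls, against 53% of all tested genes, 26.9% higher and 26.1% lower, so a gap between the groups was common in these data. As deposited they did not overlap for 5 members, with Stag1, Stag2, Rad21 and Nipbl above and Ctcf below the controls, against 49% of all tested genes, 45.5% higher and 3.49% lower.

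**Figure D1:**
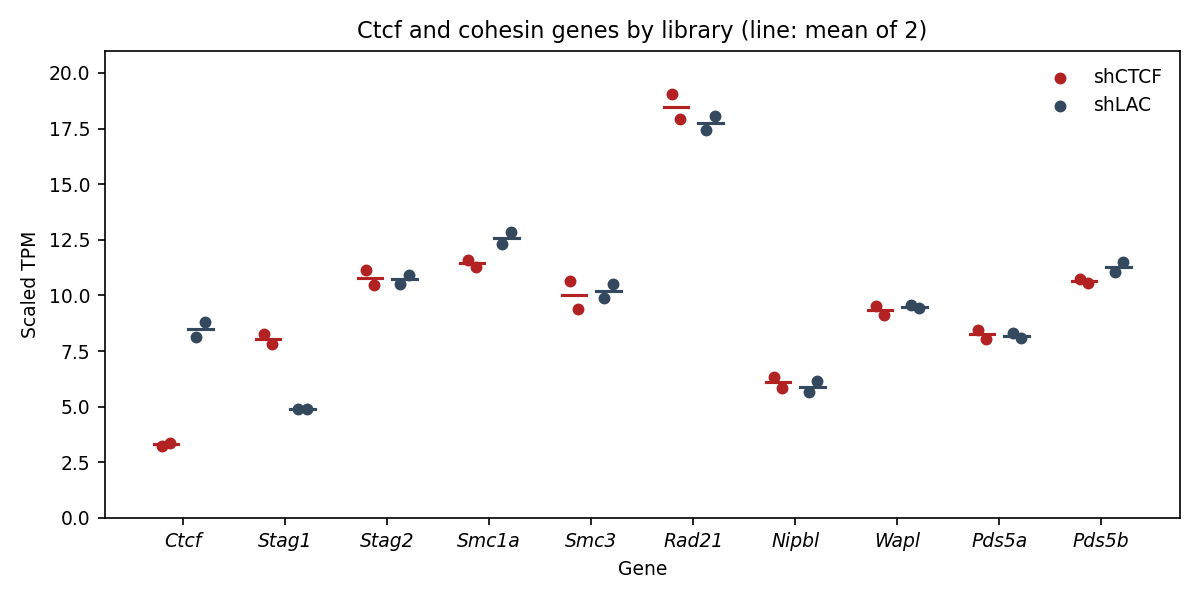
Scaled TPM of the 10 genes (y axis, linear from 0), with 1 point per library and a line at the mean of 2, shCTCF in red and shLAC in dark blue. Ctcf sat at 3.25 and 3.39 in shCTCF, below 8.15 and 8.80 in shLAC, Stag1 at 8.25 and 7.83 in shCTCF, above 4.89 and 4.91 in shLAC, and the other genes lay close together.

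Stag2, on the X chromosome, encodes the other STAG subunit and was the more abundant of the pair in every library. It was at 12.2 and 11.0 TPM in the shCTCF libraries, against 11.0 and 9.10 TPM in the shLAC libraries. Its scaled values overlapped, and its log2 fold change of 0.01 did not pass (SE 0.0552, limma adjusted p = 0.951, 95% interval -0.14 to 0.16). The ratio of Stag1 to Stag2 within a library does not depend on the scale of that library. It was 0.741 and 0.749 in the shCTCF libraries, against 0.465 and 0.450 in the shLAC libraries, 1.63 times higher in the knockdown. Stag1 thus made up 42.6% and 42.8% of the summed Stag1 and Stag2 TPM in shCTCF, against 31.8% and 31.0% in shLAC. The difference of 0.70 on the log2 scale stood beside SDs of 0.0113 in shCTCF and 0.0354 in shLAC, and it lay between 0.68 and 0.73 without each library in turn. An exact 2-sided permutation test of 2 against 2 libraries cannot give a p below 0.333, so no ratio could pass a threshold of 0.05.

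The ring genes Smc1a, Smc3 and Rad21 did not pass. Rad21, the kleisin, was the most abundant member in all 4 libraries, at 20.9 and 18.8 TPM in shCTCF, against 18.2 and 15.1 TPM in shLAC. Its log2 fold change was 0.05 (95% interval -0.09 to 0.20, limma adjusted p = 0.614). Smc3 was at 11.7 and 9.88 TPM in shCTCF, against 10.3 and 8.73 TPM in shLAC. Its scaled groups overlapped, with a log2 fold change of -0.02 (95% interval -0.22 to 0.18, limma adjusted p = 0.905). Smc1a, which is X-linked like Stag2, was at 12.7 and 11.9 TPM in shCTCF, against 12.8 and 10.7 TPM in shLAC. Its scaled values were lower in both knockdown libraries, at 91.0% of control, but the log2 fold change of -0.13 did not pass (95% interval -0.26 to 0.01, limma adjusted p = 0.263). As deposited its values overlapped and its difference had the opposite sign.

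The regulators did not pass either. Nipbl, the loader and motor partner, was at 6.96 and 6.13 TPM in shCTCF, against 5.88 and 5.12 TPM in shLAC, with a scaled log2 fold change of 0.04 (95% interval -0.15 to 0.23, limma adjusted p = 0.795). Wapl, the release factor, was at 10.5 and 9.57 TPM in shCTCF, against 9.98 and 7.84 TPM in shLAC, with -0.02 on that scale (95% interval -0.16 to 0.11, limma adjusted p = 0.824). Both genes had overlapping scaled groups. Pds5a was at 9.28 and 8.45 TPM in shCTCF, against 8.66 and 6.72 TPM in shLAC (scaled log2 fold change 0.01, limma adjusted p = 0.948). Pds5b, its paralog, was at 11.8 and 11.1 TPM in shCTCF, against 11.5 and 9.56 TPM in shLAC (scaled log2 fold change -0.08, 95% interval -0.20 to 0.05, limma adjusted p = 0.437). Pds5a overlapped between groups after scaling, whereas both scaled Pds5b values in shCTCF lay just below both in shLAC. Over the 8 genes that did not pass, the 95% intervals reached from 0.837 to 1.17 times the control on the scale of TPM + 1, and 0 of them had an unadjusted limma p below 0.05.

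**Figure D2:**
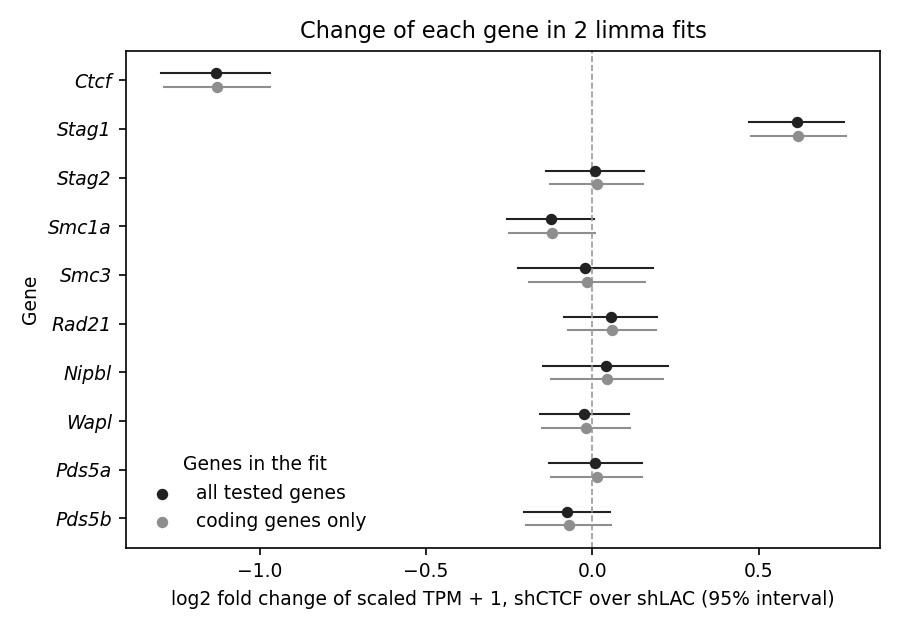
The log2 fold change of scaled TPM + 1, shCTCF over shLAC, with its 95% interval (x axis) for each gene, from limma over all 12816 tested genes (black) and over 11268 coding genes (grey). The intervals of Ctcf, -1.30 to -0.97, and Stag1, 0.47 to 0.76, stood away from 0 in the fit over all tested genes, and the other 8 included 0 in both fits.

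Levels relative to the ring, taken as the geometric mean of Smc1a, Smc3 and Rad21 in the same library, gave the same picture free of library scale. Ctcf stood at 0.244 and 0.273 of the ring level in shCTCF, against 0.634 and 0.654 in shLAC. Stag1 stood at 0.620 and 0.632 in shCTCF, against 0.381 and 0.365 in shLAC. These ratios were 40.1% of control for Ctcf and 168% for Stag1, with no overlap between the groups. The ratios of Stag2, Nipbl and Pds5b to the ring did not overlap either, so a lack of overlap was common among these ratios. Stag2 differed little, at 0.837 and 0.844 in shCTCF and 0.819 and 0.813 in shLAC, so that Stag1 and Stag2 summed to 1.47 ± 0.0128 of the ring level in shCTCF, against 1.19 ± 0.0157 in shLAC (SD, n = 2 each), without overlap. The ratios of Nipbl, Wapl, Pds5a and Pds5b to the ring were between 96.6% and 106% of control. Nipbl to Wapl, loader to release factor, was 0.665 and 0.641 in shCTCF, against 0.589 and 0.653 in shLAC, and these values overlapped. Pds5a to Pds5b was 0.787 and 0.763 in shCTCF, against 0.750 and 0.703 in shLAC, a difference of 0.09 on the log2 scale beside SDs of 0.0322 and 0.0667.

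**Figure D3:**
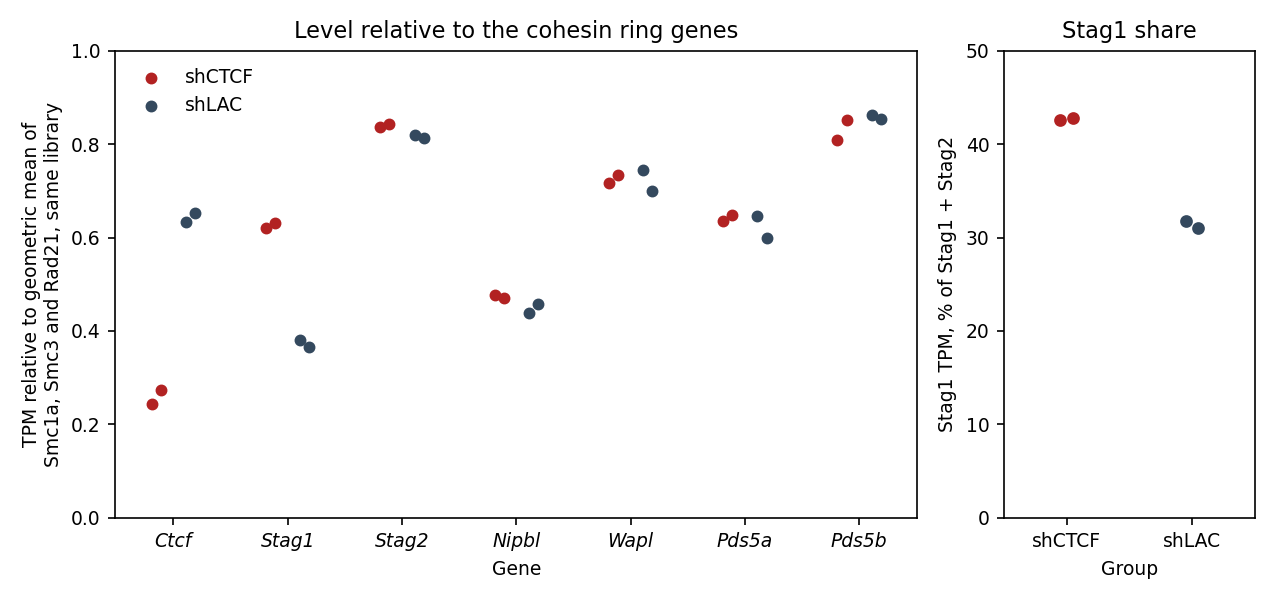
Left, TPM of 7 genes relative to the geometric mean of Smc1a, Smc3 and Rad21 in the same library (y axis), 1 point per library, shCTCF in red and shLAC in dark blue; right, Stag1 as a percentage of Stag1 plus Stag2. Ctcf was lower and Stag1 higher in shCTCF, with the Stag1 share at 42.6% and 42.8% in shCTCF, against 31.8% and 31.0% in shLAC.

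The order of the 10 levels changed at these genes. In shCTCF, Stag1 ranked 8 in both libraries and Ctcf ranked 10, the lowest. In shLAC, Stag1 ranked 10 in both libraries and Ctcf ranked 8 and 7. Rad21 ranked 1 and Smc1a ranked 2 in all 4 libraries, and Nipbl ranked 9 in all 4. Between neighbours in the order of scaled means, 4 of 9 pairs overlapped in shCTCF, such as Stag2 and Pds5b, and 1 of 9, Ctcf and Pds5a, in shLAC. The members were genes of medium level, with mean scaled TPM from the 44.4th percentile of tested coding genes for Ctcf to the 78.6th for Rad21.

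The surroundings of the changed genes were examined after their values were seen. Within 1 Mb of Stag1, 10 tested genes included Pccb, Msl2 and Nck1, and 0 passed, with log2 fold changes from -0.07 to 0.17 and limma adjusted p of at least 0.320. Gm37204, an unconfirmed transcript annotated inside Stag1 on the same strand, was at 15.7 and 14.9 TPM in shCTCF, against 13.4 and 13.7 TPM in shLAC (log2 fold change -0.03, limma adjusted p = 0.929). Within 1 Mb of Ctcf, 2 of 39 tested genes passed, and both rose, where 1.05% of all tested genes passed and 0.367% were higher. Zdhhc1, a palmitoyltransferase gene, was at 4.19 and 4.42 TPM in shCTCF, against 1.39 and 1.11 TPM in shLAC (log2 fold change 1.10, limma adjusted p = 0.0242). Gm38250, annotated as an antisense transcript, spans 105566324 to 105578109 and does not overlap Ctcf. It was at 2.32 and 1.95 TPM in shCTCF, against 0.18 and 0.23 TPM in shLAC (log2 fold change 1.29, limma adjusted p = 0.0312). At such low levels, log2 fold changes of TPM + 1 understate the change in TPM of Zdhhc1 and Gm38250. Gm5914, a long noncoding RNA that overlaps the start of Ctcf on the opposite strand, was at 1.38 and 0.95 TPM in shCTCF, against 2.40 and 2.53 TPM in shLAC, and did not pass (log2 fold change -0.82, limma adjusted p = 0.0925). Agrp, a coding gene whose annotation also overlaps the start of Ctcf on the opposite strand, was too low to be tested. It was at 0.27 and 0.26 TPM in shCTCF, against 0.05 and 0.04 TPM in shLAC. Whether reads were assigned by strand is not given in the sources used here. Reads of Ctcf, Gm5914 and Agrp therefore cannot be told apart where these genes overlap. Agrp, annotated from 105566698 to 105637393, also overlaps Gm38250, for which the same holds.

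Some genes followed the members over the 4 libraries. By the smallest Euclidean distance between scaled log2(TPM + 1) values centred on each gene's mean, among 9532 coding genes, those nearest to Ctcf were Mdp1 (0.0774), the mitochondrial pyrophosphatase gene Ppa2 (0.137), the mitochondrial ribosomal protein gene Mrpl23 (0.181), the endonuclease gene Mus81 (0.189) and the pro-apoptotic gene Bak1 (0.234). All 5 passed and fell, by 0.91 to 1.13 on the log2 scale. Near to Stag1 were Enoph1 (0.0453), which encodes an enzyme of methionine salvage, and Fra10ac1 (0.0525). Both passed and rose, by 0.63 and 0.66 on the log2 scale. Enoph1 was at 17.3 and 15.3 TPM in shCTCF, against 9.96 and 7.73 TPM in shLAC, and Fra10ac1 was at 7.23 and 6.68 TPM in shCTCF, against 3.86 and 3.10 TPM in shLAC. Likeness over 4 libraries of 2 groups is a description of these libraries. These genes were picked by likeness in the same values that were tested, so their direction and calls are no separate result.

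None of the tested genes in the wider loop and SMC lists passed over all 12816 genes in the scaled values. Of 15 further cohesin regulators and germline paralogs, 4 passed the filter on low values and 0 passed the test, with a median log2 fold change of -0.01 beside 0.00 over all genes. An unadjusted limma p below 0.05 was found for 2567 of the 12816 genes (20.03%), against which the counts of such genes below are to be read, and for 0 of these 4. Mau2, the partner of Nipbl in the loader, was at 15.5 and 15.6 TPM in shCTCF, against 14.3 and 11.4 TPM in shLAC (limma adjusted p = 0.435). Pttg1, the securin that restrains separase, was at 6.26 and 8.31 TPM in shCTCF, against 6.43 and 5.52 TPM in shLAC (limma adjusted p = 0.849). The paralogs used in the germline were near 0. Ctcfl, the paralog of Ctcf, was at 0.62 and 0.84 TPM in shCTCF, against 0.60 and 0.89 TPM in shLAC, and Stag3 at 0.58 and 0.69 TPM in shCTCF, against 0.64 and 0.56 TPM in shLAC. Smc1b, Rec8 and Rad21l were at most at 0.23 TPM in any library. The cohesion genes of dividing cells Esco2, Cdca5 and Sgo1 were also low, at 0.39 to 0.80 TPM in shCTCF and 0.34 to 0.69 TPM in shLAC. Some other genes of dividing cells were higher, such as Mki67 at 7.13 and 7.63 TPM in shCTCF, against 6.44 and 5.61 TPM in shLAC. Scaled TPM summed over 18 proliferation and progenitor markers was 134 and 136 in shCTCF, against 128 and 130.5 in shLAC.

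Of 8 replication and helicase factors linked to cohesin, 4 were tested and 0 passed. Chtf8, which belongs to the clamp loader that aids cohesion, was at 19.27 and 19.98 TPM in shCTCF, against 16.79 and 14.78 TPM in shLAC (limma adjusted p = 0.468). All 8 condensin genes were tested and 0 passed, with a median log2 fold change of 0.04; Ncapd2 was at 5.32 and 5.37 TPM in shCTCF, against 4.29 and 3.79 TPM in shLAC (limma adjusted p = 0.279), and Ncaph2 at 16.1 and 15.6 TPM in shCTCF, against 16.9 and 13.0 TPM in shLAC (limma adjusted p = 0.322). For both lists 0 members had an unadjusted limma p below 0.05. Of 8 genes of the SMC5/6 complex, a relative of cohesin in DNA repair, 0 passed, with a median of 0.01 and 3 at an unadjusted limma p below 0.05, beside 20.03% of all genes. The SUMO ligase subunit gene Nsmce2 was at 7.98 and 7.99 TPM in shCTCF, against 6.50 and 5.53 TPM in shLAC (limma adjusted p = 0.203), and Nsmce3 at 13.1 and 14.6 TPM in shCTCF, against 13.6 and 9.97 TPM in shLAC (limma adjusted p = 0.842). Nsmce4a, named after its values were seen, was at 5.76 and 4.46 TPM in shCTCF, against 8.81 and 6.73 TPM in shLAC. It was the 1 of 8 that fell in the coding genes fitted alone, where 3.48% of all coding genes did. Its fall there was 0.69 on the log2 scale (limma adjusted p = 0.0115), but it did not pass over all tested genes (limma adjusted p = 0.0743).

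All 25 partners of CTCF and other architectural factors were tested, and 0 passed. Their median log2 fold change was 0.01, and 3 had an unadjusted limma p below 0.05, beside 20.03% of all genes. The helicase gene Ddx5, a CTCF partner, was at 114 and 103 TPM in shCTCF, against 103 and 87.1 TPM in shLAC (limma adjusted p = 0.901), and the nuclear matrix gene Matr3 at 130 and 125 TPM in shCTCF, against 131 and 101 TPM in shLAC (limma adjusted p = 0.584). In the coding genes fitted alone 1 of 25 rose and 1 fell, where 6.06% of all coding genes passed, and both are named after their values were seen. Taf3, a TFIID subunit that CTCF recruits in mouse embryonic stem cells, was at 3.09 and 2.81 TPM in shCTCF, against 1.66 and 1.53 TPM in shLAC (log2 fold change 0.47, limma adjusted p = 0.0241 in that fit and 0.0858 over all genes), and as deposited it rose by 0.61 (limma adjusted p = 0.0127). Npm1, which encodes nucleophosmin, was at 91.7 and 88.2 TPM in shCTCF, against 102 and 83.8 TPM in shLAC (log2 fold change -0.24, limma adjusted p = 0.0350 in that fit and 0.0927 over all genes). Of 32 Mediator and Mediator kinase genes, whose complex bridges enhancers and promoters, 0 passed over all genes, with a median of -0.02 and 7 at an unadjusted limma p below 0.05, a share near the 20.03% of all genes. Med10 (limma adjusted p = 0.200) and Med28 (limma adjusted p = 0.275) were named as abundant members. In the coding genes 1 of 32 rose, beside 2.58% of all coding genes. It was Cdk19, a Mediator kinase, at 6.22 and 5.59 TPM in shCTCF, against 3.62 and 3.21 TPM in shLAC. Its log2 fold change was 0.48 (limma adjusted p = 0.0175 in the coding genes and 0.0759 over all genes), and as deposited it rose by 0.65 (limma adjusted p = 0.0292). For Taf3 and Cdk19, the fit as deposited did not use each gene's own spread. Its adjusted p therefore cannot be set beside that of the scaled fits. Both rises as deposited stood beside a median of 0.17 over all tested genes.

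**Figure D4:**
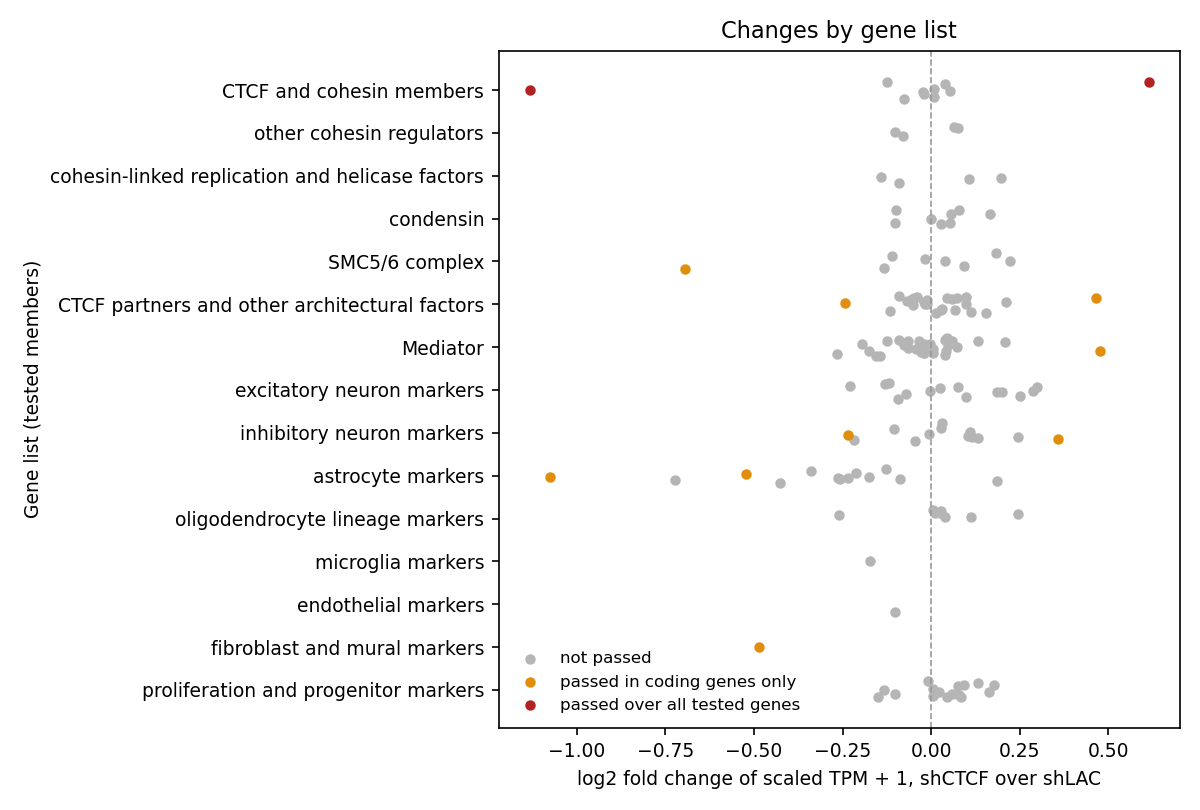
The log2 fold change of scaled TPM + 1, shCTCF over shLAC (x axis), of each tested gene (points, spread vertically for legibility) in 15 gene lists, coloured by the test passed at an adjusted p below 0.05. Ctcf at -1.13 and Stag1 at 0.61 were the only genes of these lists that passed over all tested genes in the scaled values, and most points of the loop and SMC lists lay near 0.

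Cell type markers were set beside these changes. Of 13 tested astrocyte markers 12 had a negative log2 fold change, with a median of -0.26, and 0 passed over all genes; 3 had an unadjusted limma p below 0.05, a share near the 20.03% of all genes. The glutamate transporter genes were Slc1a3, at 35.8 and 29.1 TPM in shCTCF, against 47.3 and 34.9 TPM in shLAC (limma adjusted p = 0.0951), and Slc1a2 (limma adjusted p = 0.563). In the coding genes fitted alone 2 of 13 astrocyte markers fell, where 3.48% of all coding genes did. These were Slc1a3 (limma adjusted p = 0.0204) and the water channel gene Aqp4 (limma adjusted p = 0.0151). Aqp4 was at 2.35 and 1.46 TPM in shCTCF, against 5.65 and 3.49 TPM in shLAC, a scaled log2 fold change of -1.08 over all genes that did not pass (limma adjusted p = 0.0858). As deposited, Aqp4 (-0.93, limma adjusted p = 1.35e-05) and the transporter gene Slco1c1 (-0.58, limma adjusted p = 0.0311) fell, beside 0.905% of all tested genes. That fit did not use each gene's own spread, which was wide for Aqp4. Its adjusted p therefore cannot be set beside that of the scaled fit. Of 14 tested excitatory markers 0 passed, with a median of 0.05 and 6 at an unadjusted limma p below 0.05, beside 20.03% of all genes, among them Slc17a7 (limma adjusted p = 0.180) and Camk2a (limma adjusted p = 0.186). Of 13 inhibitory markers 0 passed, with Gad1 at a limma adjusted p of 0.434 and Sst at 0.821. An unadjusted limma p below 0.05 was found for 3 of them, beside 20.03% of all genes. In the coding genes 1 rose, Slc32a1 (limma adjusted p = 0.0462), and 1 fell, Calb2 (limma adjusted p = 0.0494). Both are named after their values were seen, and of all coding genes 2.58% were higher and 3.48% lower. Of 16 proliferation and progenitor markers 0 passed, with a median of 0.05, 2 at an unadjusted limma p below 0.05, Pcna at a limma adjusted p of 0.201 and Vim at 0.204. Of 8 oligodendrocyte lineage markers 0 passed, with Olig1 at a limma adjusted p of 0.581 and Pdgfra at 0.944, and 0 had an unadjusted limma p below 0.05. The tested microglial marker Cd68 (limma adjusted p = 0.308) and endothelial marker Ocln (limma adjusted p = 0.571) did not pass. Dcn was the only 1 of 8 fibroblast and mural markers that passed the filter on low values, so it does not speak for those cells. It had a limma adjusted p of 0.0839 over all genes and fell in the coding genes (limma adjusted p = 0.0216), where 3.48% of all coding genes did. The part of these differences in the Ctcf and Stag1 changes was not tested.

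**Figure D5:**
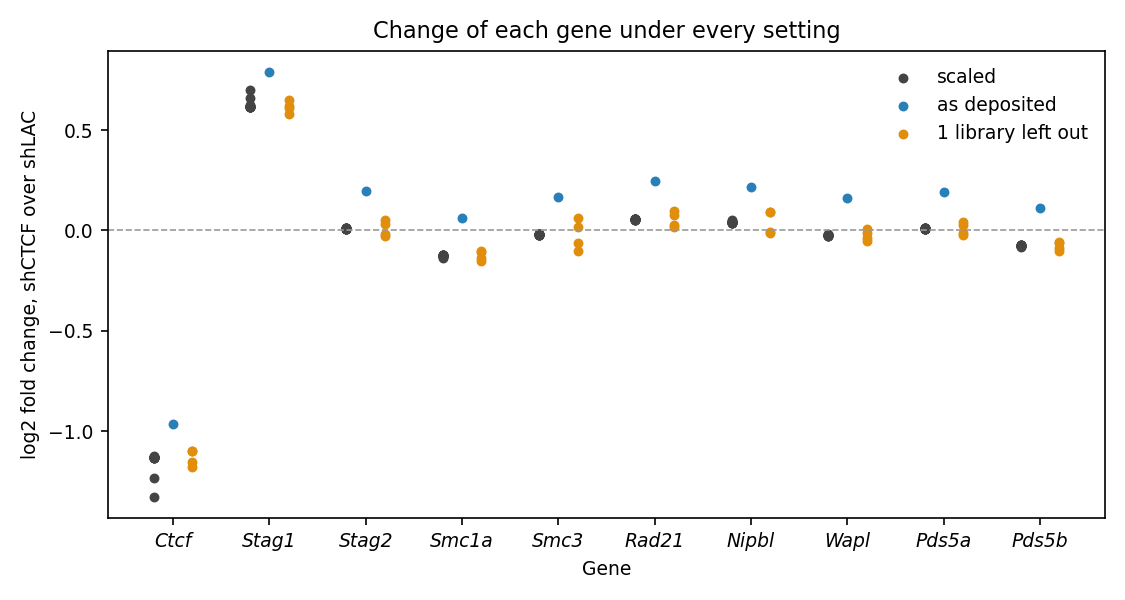
The log2 fold change of each gene (y axis) under the settings tried, with scaled values in dark grey, values as deposited in blue and fits without 1 library in orange. Ctcf stayed between -1.33 and -0.96 and Stag1 between 0.58 and 0.79, while Smc1a, Smc3, Wapl and Pds5b changed sign between scaled values and those as deposited.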

How the data were processed

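RNA was sequenced in 4 libraries as paired reads, and the labels give 2 replicates per group without saying whether they were separate cultures, so p-values may reflect technical spread only. The deposited values were TPM per Ensembl gene, 1 file per library, with each file summing to 1000000. Per the submitters' processing notes, RSEM 1.2.28, CASAVA and mm10 were used; neither annotation release nor strand setting is stated. TPM keeps no depth, so no counting interval is given.

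GENCODE vM21 (GRCm38, the assembly of mm10) named 37060 of 37437 identifiers; promoters came from RefSeq on GRCm38.p6. The 12816 genes that reached 1 TPM in 2 or more libraries were divided by median-ratio factors. Differences in log2(TPM + 1) were tested by limma 3.58.1 under R 4.3.3, with a trended prior (2.44 degrees of freedom) and Benjamini-Hochberg adjustment at 0.05. Fold changes on this scale understate those of low genes. Alternatives were values as deposited, other scalings, filters, pseudocounts and priors, coding genes of at least 300 nt without satellite-like genes, blocking on replicate number, and omission of each library; leaving out libraries among coding genes was added later.

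The members and lists were chosen with earlier results of these data known. All members were named. Of each other list, up to 4 members that passed were named, or the 2 most abundant where none passed, and as genes of like pattern the 5 nearest to Ctcf and 3 nearest to any other member that passed, of mean at least 2 TPM. Some genes that this rule names are not reported here.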

Additional observations from a re-analysis of the deposited data

How the results depend on the processing

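Ctcf was lower in all 16 other settings and passed in 13, and Stag1 was higher in all 16 and passed in 10; the cause of the lost calls was not tested. With no filter on low values Stag1 had a log2 fold change of 0.62 and did not pass, so 0 cohesin members passed, with 12 genes higher and 15 lower in all. Same-numbered libraries share only a number in the labels, and their deviations correlated at 0.0817 across 12816 genes. With the replicate block, Ctcf (-1.13, limma adjusted p = 0.0572) and Stag1 (0.61, limma adjusted p = 0.0934) did not pass, 0 cohesin members passed, and 5 genes were higher and 9 lower. Against 47 genes higher and 87 lower, 246 were higher as deposited, 291 higher and 392 lower among coding genes, 21 and 38 among genes averaging 5 TPM or more, and 113 and 211 with a robust prior.

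Without each library in turn, Ctcf lay between -1.18 and -1.10, and in the coding genes between -1.18 and -1.09. Stag1 lay between 0.58 and 0.65 in both. The counts of genes passing that follow come from the fits over all tested genes. From 0 to 58 genes were higher and 7 to 84 lower. The sign varied without 1 library for Stag2 (-0.0301 to 0.0526), Nipbl (-0.0133 to 0.0937), Pds5a (-0.0209 to 0.0437), Smc3 (-0.101 to 0.0639), Wapl (-0.0518 to 0.00869), Pttg1 (-0.14 to 0.27), Nsmce3 (-0.0568 to 0.14), Ddx5 (-0.0562 to 0.0298), Slc1a2 (-0.26 to 0.00381), Sst (-0.0281 to 0.0794), Olig1 (-0.0201 to 0.24) and Pdgfra (-0.12 to 0.17). As deposited it was reversed, with none passing, for Smc1a (0.0636), Smc3 (0.17), Wapl (0.16), Pds5b (0.11), Ncaph2 (0.0920), Ddx5 (0.19), Matr3 (0.15), Med10 (0.0217), Slc1a2 (0.0713), Ocln (0.00648) and Pcna (0.0628), and after quantile normalization for Sst (-0.0113). Depth is unknown, so how far it limits the small differences of the 8 other members cannot be given.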
